A study of Mus musculus with 12 samples.

Results

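The genes of cholesterol and fatty acid synthesis were followed in developing mouse brain, hindbrain and spinal cord as a set of 37 genes, named from the textbook steps of these pathways and their regulators. A gene was read through probe sets (groups of short probes for a transcript) annotated with its symbol alone, and where it had several, the probe set with the highest mean over all samples was used. This gave 36 of the 37 genes, out of 18193 genes read this way on the whole array, and all 36 were bright enough to enter the tests on 12600 genes. Acat2 had no such probe set and was not analysed here. The 36 genes fall into 6 enzymes from HMG-CoA to farnesyl pyrophosphate (the mevalonate steps), 11 enzymes from there to cholesterol (the sterol steps), 6 regulators, 4 enzymes of fatty acid synthesis and 9 that desaturate, elongate or hydroxylate fatty acids.

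The study placed 3 samples of total RNA in each of 4 groups: wild-type mice at postnatal day 0 (P0), NR3B knockout mice at P0, wild-type mice at postnatal day 5 (P5) and NR3B knockout mice at P5. NR3B is a subunit of NMDA-type glutamate receptors, and Grin3b is its gene, and no treatment is named for any group. One label names the tissue brain, hindbrain and spinal cord, and another only brain. The strain, the deleted part of the gene, and whether the samples of a group came from separate animals are not given in the sources used here, so each p-value reflects sample-to-sample spread that may be partly technical. A bulk sample cannot tell more cells of a type from more RNA per cell.

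Cholesterol is built from acetyl-CoA through mevalonate, squalene and lanosterol. The transcription factors SREBP-1 and SREBP-2 switch the pathway on when the sterol sensor SCAP escorts them from the endoplasmic reticulum, and the INSIG proteins hold SCAP back when sterols are plentiful. Fatty acids are built from the same acetyl-CoA by acetyl-CoA carboxylase and fatty acid synthase, then lengthened by elongases, given double bonds by desaturases, and in myelin often 2-hydroxylated. The brain makes its own cholesterol, because that of the blood does not cross into it, and myelin, the membrane that oligodendrocytes wrap around axons after birth, is rich in cholesterol and in very long-chain and hydroxylated lipids.

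The only Grin3b probe set read 353, 198 and 304 in wild type at P0 (deposited signal) and 31.4, 38.8 and 96.9 in knockout at P0. At P5 it read 273, 168 and 155 in wild type and 48.5, 39.7 and 45.4 in knockout, so all knockout samples lay below all wild-type samples of their age, although the probe set is dim (13th percentile). Median signals of the 12 arrays ranged from 605 to 734. P0 wild-type samples 1 and 2 stood apart from the others, and the counts below that rest on them are given with and without them. The control for 18S ribosomal RNA read 7730 in sample 1 and 48900 to 111000 elsewhere. The weights that limma gives to arrays by their fit were 0.36 and 0.189 for these samples and 2.44 for P0 wild-type sample 3, and P0 knockout sample 1 also had a low weight of 0.375. In the 36 genes the median SD within a group was 0.312 in wild type at P0, 0.127 in knockout at P0, 0.094 in wild type at P5 and 0.09 in knockout at P5 (log2 scale, n = 3 each). P0 wild-type sample 1 was the lowest of all 12 samples in 13 of the 36 genes and the highest in 6. The ratio of 3′ to 5′ control probe sets, a sign of RNA quality, was 0.658 to 0.839 for Gapdh and 1.19 to 1.58 for beta-actin, where P0 knockout sample 3 and P0 wild-type sample 3 (1.48) were the highest.

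**Figure D1:**
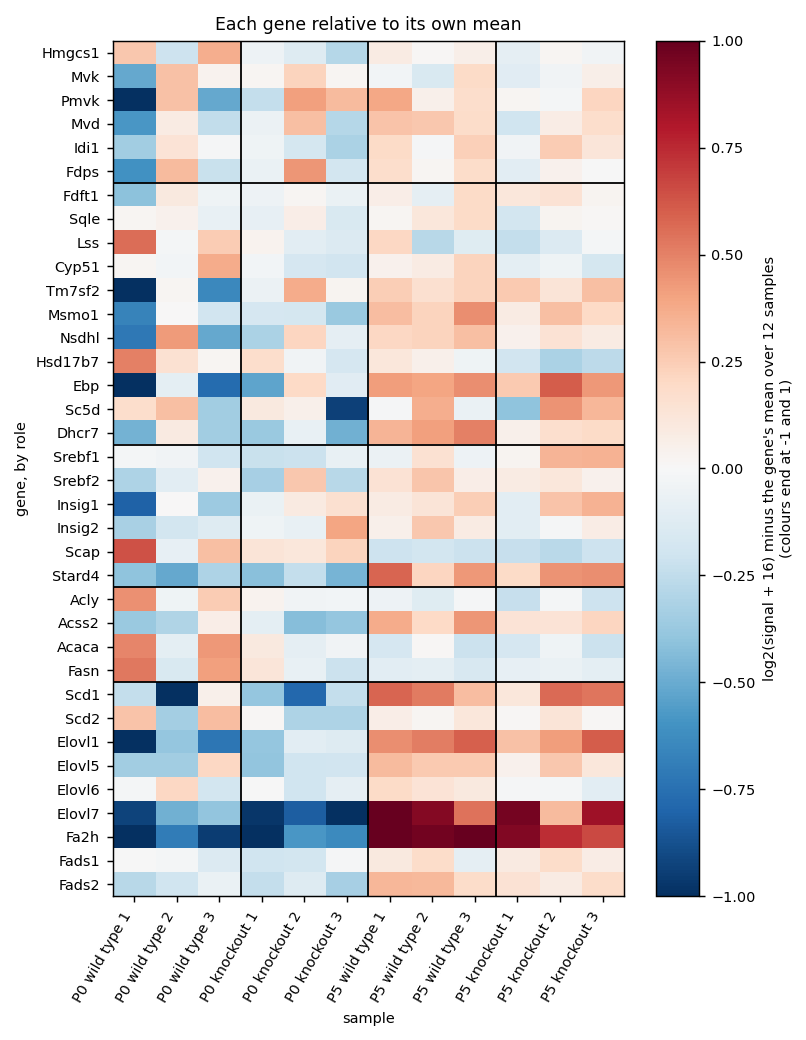
Level of each of the 36 genes (rows, by role) in each of the 12 samples (columns), as log2(signal + 16) minus the gene's own mean over the 12 samples; colours end at -1 and 1. Elovl7 and Fa2h turn from blue to red between P0 and P5 in all samples, and P0 wild-type sample 1 differs from its group in many rows.

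The first question was which of these genes changed between birth and day 5. With both genotypes averaged, 13 of the 36 genes rose and 1 fell (limma, Benjamini-Hochberg adjusted p under 0.05 over 12600 genes), where 14.5% of all genes tested rose and 15% fell. The median difference of the 36 genes was 0.246 on the log2 scale, against 0.001 for all genes tested, and 29 of the 36 lay above 0. By role, the genes that rose were 0 of 6 mevalonate enzymes, 4 of 11 sterol enzymes, 2 of 6 regulators, 1 of 4 enzymes of fatty acid synthesis, and 6 of 9 enzymes of desaturation, elongation and hydroxylation. Whether these shares differ from each other was not tested. All 6 P5 samples lay above all 6 P0 samples in 9 of the 36 genes, against 7.4% of all genes tested. They all lay below in 1 of the 36, Scap, against 7.75% of all genes tested. Without P0 wild-type samples 1 and 2, which leaves a single P0 wild-type sample that is assumed to vary like the others, 19 of the 36 genes passed, where 34.3% of all genes did.

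In wild type alone, 12 of the 36 genes rose and 1 fell from P0 to P5, where 10.8% of all genes tested rose and 8.52% fell. The median difference of the 36 was 0.291, against 0.029 for all genes. In knockout alone 6 rose and 0 fell, where 5.5% of all genes rose and 4.95% fell, and the median was 0.138 against -0.028. In knockout 14 of the 36 had an unadjusted p under 0.05, Scap among them, where 25.1% of all genes did. The 6 genes that rose in knockout, Stard4, Scd1, Elovl1, Elovl7, Fa2h and Fads2, also rose in wild type. Without P0 wild-type samples 1 and 2 the counts were 13 in wild type and 13 in knockout, where 24.2% and 17.2% of all genes passed. Acss2, Scd1, Elovl5 and Fads2 then lost their wild-type call. Pmvk (0.72, adjusted p = 0.0394) and Nsdhl (0.76, adjusted p = 0.00988) then passed as higher, and Fasn (-0.54, adjusted p = 0.014) and Acaca (-0.56, adjusted p = 0.0176) as lower. The knockout comparison holds no wild-type sample, but its p-values use 1 spread per gene over all groups. With only the knockout groups in the fit, 9 of the 36 genes passed in knockout, where 10.9% of all genes did. The different counts of wild type and knockout do not show that the genotypes differ: the test of the difference between the age changes passed for 0 of the 36 genes, as described further on.

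**Figure D2:**
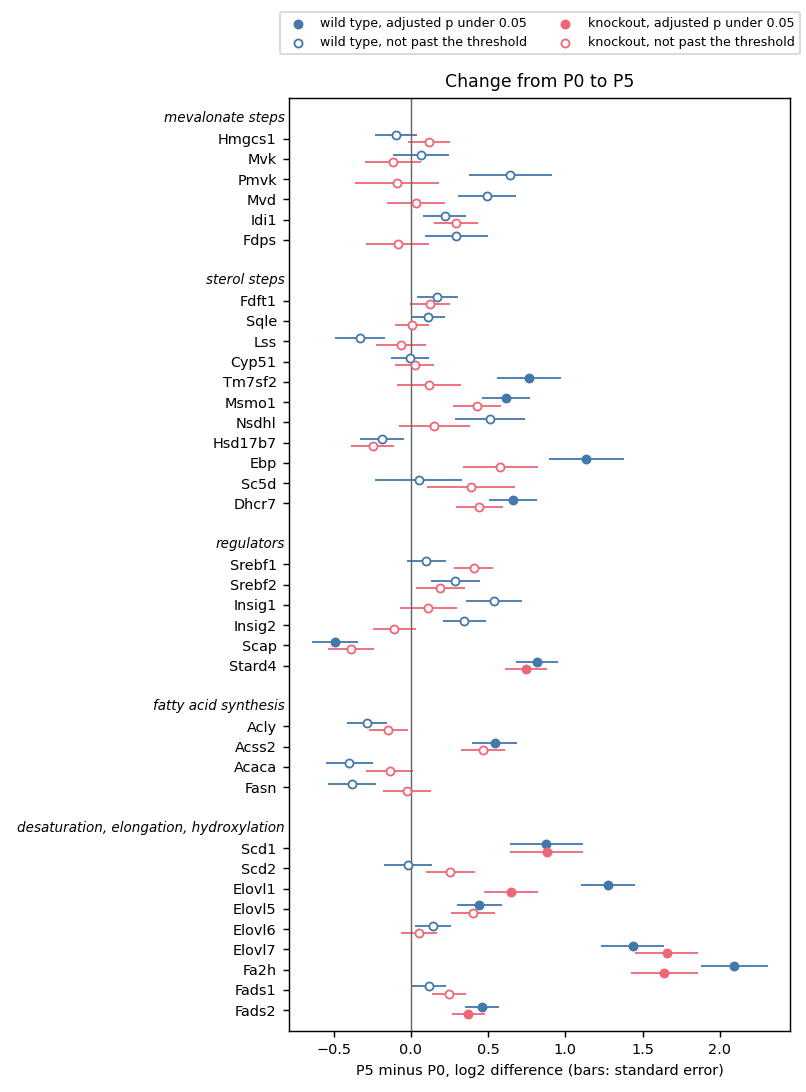
Difference from P0 to P5 (log2, horizontal axis) of each of the 36 genes in wild type (blue) and knockout (red); bars are standard errors of the limma fit, and filled points passed the threshold. Fa2h, Elovl7, Elovl1, Ebp, Scd1 and Stard4 lie farthest to the right, and the mevalonate enzymes have open points in both genotypes.

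The 6 mevalonate enzymes did not pass the threshold in wild type, in knockout or in the average. Hmgcs1, which makes HMG-CoA, read 16.76, 16.28 and 16.85 in wild type at P0, 16.44, 16.36 and 16.20 in knockout at P0, 16.57, 16.50 and 16.55 in wild type at P5, and 16.40, 16.51 and 16.45 in knockout at P5 (all levels are quantile-normalised log2(signal + 16)). The P0 samples spread on both sides of the P5 samples. Its average difference was 0.01 (SE 0.10, adjusted p = 0.931), with a 95% interval of -0.19 to 0.22. The average differences of the other mevalonate enzymes, in pathway order, were -0.02 for mevalonate kinase (Mvk), 0.28 for phosphomevalonate kinase (Pmvk), 0.26 for the decarboxylase Mvd, 0.25 for the isomerase Idi1 and 0.10 for farnesyl pyrophosphate synthase (Fdps), with adjusted p from 0.0707 to 0.907. Probe sets of the same gene did not always give the same call. A second Idi1 probe set was 0.51 higher at P5 (SE 0.08, limma adjusted p = 0.00126 over all probe sets, with no filter on dim ones), and a second Mvd probe set was 0.52 higher (SE 0.13, adjusted p = 0.0191).

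Of the 11 sterol enzymes, Ebp, Dhcr7, Msmo1 and Tm7sf2 rose, and 0 fell. Ebp, the isomerase that moves the double bond of the sterol ring, read 10.79, 11.95 and 11.28 in wild type at P0 and 11.52, 12.25 and 11.93 in knockout at P0. At P5 it read 12.47, 12.45 and 12.51 in wild type and 12.31, 12.65 and 12.48 in knockout, so every P5 sample was above every P0 sample. It rose 2.20-fold in wild type (log2 difference 1.13, SE 0.24, adjusted p = 0.00677) and had a difference of 0.58 in knockout (SE 0.24, adjusted p = 0.155). The average was 0.86 (SE 0.17, 1.81-fold, adjusted p = 0.00239).

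Dhcr7, the reductase of the last step to cholesterol, read 11.79, 12.35 and 11.92 in wild type at P0 and 11.89, 12.19 and 11.78 in knockout at P0. Its P5 levels were 12.60, 12.67 and 12.77 in wild type and 12.32, 12.43 and 12.45 in knockout. The ages did not overlap within a genotype, while P0 wild-type sample 2 lay above the lowest P5 knockout sample. Dhcr7 rose 1.58-fold in wild type (adjusted p = 0.0106) and 1.47-fold in the average (log2 difference 0.55, SE 0.11, adjusted p = 0.00211), and in knockout the difference was 0.44 (SE 0.15, adjusted p = 0.0871).

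Msmo1, a C4-demethylation enzyme, read 13.28, 13.96 and 13.76 in wild type at P0, 13.78, 13.77 and 13.58 in knockout at P0, 14.26, 14.17 and 14.41 in wild type at P5, and 14.03, 14.25 and 14.15 in knockout at P5. All P5 samples lay above all P0 samples, and the average rise was 1.44-fold (log2 difference 0.52, SE 0.11, adjusted p = 0.00314). Tm7sf2, a sterol reductase, read 11.56, 12.60 and 11.94 in wild type at P0 against 12.53, 12.96 and 12.61 in knockout at P0, 12.83, 12.75 and 12.81 in wild type at P5 and 12.85, 12.71 and 12.89 in knockout at P5. P0 wild-type samples 1 and 3 were the lowest of all, and P0 wild-type sample 2 lay within the range of the other groups. It rose 1.70-fold in wild type (adjusted p = 0.0224), its difference in knockout was 0.12 (SE 0.21, adjusted p = 0.782), and its average of 0.44 (SE 0.15, adjusted p = 0.0373) lost the call without P0 wild-type sample 1 (0.32, adjusted p = 0.0712).

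The other 7 sterol enzymes had average differences from -0.22 to 0.33 and did not pass. They are squalene synthase (Fdft1, 0.15), squalene epoxidase (Sqle, 0.06), lanosterol synthase (Lss, -0.20), the C14-demethylase Cyp51 (0.01), the C4 enzymes Nsdhl (0.33) and Hsd17b7 (-0.22), and the C5-desaturase Sc5d (0.22). Cyp51 was close to level, with a 95% interval of -0.18 to 0.20. The values below 0, of Lss and Hsd17b7, did not pass, so a fall of these steps is not shown. A second bright Lss probe set was at 0.09, and the other bright Hsd17b7 probe sets were at -0.03 and -0.10.

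**Figure D3:**
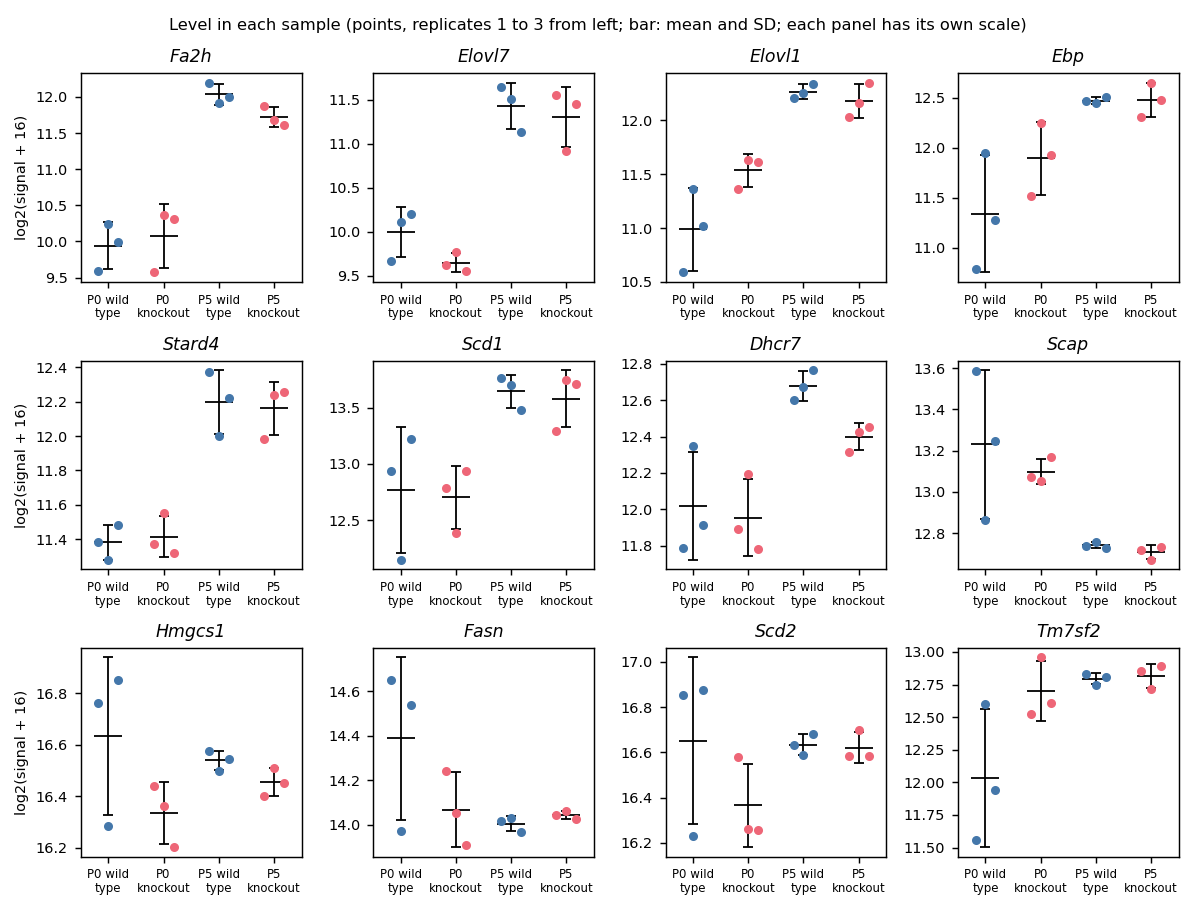
Level of 12 of the 36 genes in each of the 12 samples (points; wild type in blue, knockout in red, replicates 1 to 3 from left) with the mean and SD of each group (bars, n = 3); the vertical axis is log2(signal + 16) and differs between panels. All P5 samples of Fa2h, Elovl7, Elovl1, Ebp, Stard4 and Scd1 lie above all P0 samples, those of Scap lie below, and the ages overlap for Hmgcs1, Fasn, Scd2, Tm7sf2 and Dhcr7.

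Among the regulators, Stard4 and Srebf1 rose and Scap fell. Stard4, a carrier of cholesterol within the cell, read 11.39, 11.28 and 11.48 in wild type at P0, 11.37, 11.55 and 11.32 in knockout at P0, 12.37, 12.002 and 12.22 in wild type at P5, and 11.98, 12.24 and 12.26 in knockout at P5. The ages did not overlap, and the genotypes did at both ages. The rise was 1.76-fold in wild type (adjusted p = 0.00155), 1.68-fold in knockout (adjusted p = 0.00367) and 1.72-fold in the average (log2 difference 0.78, SE 0.10, adjusted p = 6.3e-05). The other Stard4 probe sets gave averages of 0.82 and 0.84.

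Scap, the sterol sensor that escorts the SREBPs, was the only gene of the 36 that fell in the average or in wild type. It read 13.58, 12.86 and 13.25 in wild type at P0 and 13.07, 13.06 and 13.17 in knockout at P0, then 12.74, 12.76 and 12.73 in wild type at P5 and 12.72, 12.67 and 12.74 in knockout at P5. The P5 samples of both genotypes lay within 0.09 of each other and below every P0 sample. The average fall was 1.36-fold (log2 difference -0.44, SE 0.11, adjusted p = 0.00741). In wild type it fell by 0.49 (SE 0.15, adjusted p = 0.0362), a call that was lost without P0 wild-type sample 1 (-0.31, adjusted p = 0.129). In knockout the difference was -0.39 (SE 0.15, adjusted p = 0.119).

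Srebf1, the gene of SREBP-1, read 12.16, 12.15 and 11.99 in wild type at P0, 11.96, 11.97 and 12.11 in knockout at P0, 12.12, 12.34 and 12.13 in wild type at P5, and 12.21, 12.52 and 12.53 in knockout at P5. It passed only in the average (0.25, SE 0.09, adjusted p = 0.0485), and the ages overlapped in wild type. Srebf2, the gene of SREBP-2, had an average of 0.24 (SE 0.11, adjusted p = 0.12), Insig1 of 0.33 (SE 0.13, adjusted p = 0.0745) and Insig2 of 0.12 (SE 0.10, adjusted p = 0.383). The group means of Insig1 and Insig2 were lowest in wild type at P0.

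Of the 4 enzymes of fatty acid synthesis, Acss2 rose and the other 3 did not pass, all with averages below 0. Acss2, which makes acetyl-CoA from acetate, read 11.39, 11.45 and 11.82 in wild type at P0, 11.66, 11.33 and 11.37 in knockout at P0, 12.13, 11.95 and 12.20 in wild type at P5, and 11.89, 11.89 and 11.97 in knockout at P5. Its ages did not overlap, and the average rise was 1.42-fold (log2 difference 0.50, SE 0.10, adjusted p = 0.00246). In wild type the rise was 0.54 (adjusted p = 0.0203), and the difference was 0.27 (adjusted p = 0.264) without P0 wild-type samples 1 and 2. A second bright Acss2 probe set rose by 0.74 (SE 0.11, adjusted p = 0.000706 over all probe sets). Fasn, the fatty acid synthase itself, read 14.65, 13.97 and 14.54 in wild type at P0, 14.24, 14.05 and 13.91 in knockout at P0, 14.02, 14.03 and 13.97 in wild type at P5, and 14.04, 14.06 and 14.03 in knockout at P5. The P5 samples were within a narrow band, and P0 wild-type samples 1 and 3 were the highest of all. The average difference was -0.20 for Fasn (SE 0.11, adjusted p = 0.176), -0.27 for the carboxylase Acaca (SE 0.11, adjusted p = 0.0747) and -0.21 for ATP citrate lyase (Acly; SE 0.09, adjusted p = 0.0867).

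The enzymes that modify fatty acids held the largest rises of the 36 genes. Fa2h, the hydroxylase that puts the 2-hydroxyl group on the fatty acids of myelin galactolipids, read 9.59, 10.24 and 9.995 in wild type at P0, 9.57, 10.36 and 10.31 in knockout at P0, 12.20, 11.91 and 12.002 in wild type at P5, and 11.87, 11.69 and 11.61 in knockout at P5. The lowest P5 sample lay 1.25 above the highest P0 sample. Fa2h rose 4.27-fold in wild type (log2 difference 2.09, SE 0.22, adjusted p = 3.9e-05), 3.12-fold in knockout (1.64, SE 0.22, adjusted p = 0.000333) and 3.65-fold in the average (adjusted p = 1.7e-06).

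Elovl7, an elongase of very long-chain fatty acids, read 9.68, 10.12 and 10.20 in wild type at P0, 9.63, 9.78 and 9.56 in knockout at P0, 11.64, 11.52 and 11.14 in wild type at P5, and 11.56, 10.92 and 11.45 in knockout at P5. All P5 samples were higher than all P0 samples. The rise was 2.70-fold in wild type (adjusted p = 0.000554), 3.15-fold in knockout (adjusted p = 0.000212) and 2.92-fold in the average (log2 difference 1.54, SE 0.15, adjusted p = 6.0e-06). The 6 probe sets of Elovl7 gave average differences from 0.85 to 1.66, all past the threshold among all probe sets. Of the 14 genes changed in the average, 8 had further probe sets above the filter, 15 in all, of which 12 passed in the same direction and 3 did not pass (of Scd1, Msmo1 and Fads2).

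Elovl1, which lengthens the saturated chains of sphingolipids, read 10.59, 11.36 and 11.02 in wild type at P0, 11.36, 11.64 and 11.61 in knockout at P0, 12.21, 12.25 and 12.34 in wild type at P5, and 12.03, 12.16 and 12.35 in knockout at P5. The ages did not overlap, and P0 wild type was the lowest group. It rose 2.43-fold in wild type (log2 difference 1.28, SE 0.17, adjusted p = 0.000382), 1.57-fold in knockout (0.65, SE 0.17, adjusted p = 0.0309) and 1.95-fold in the average (adjusted p = 8.6e-05). In knockout the call was lost without any 1 of the 6 knockout samples (adjusted p up to 0.127).

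Scd1, a stearoyl-CoA desaturase, read 12.93, 12.15 and 13.22 in wild type at P0, 12.79, 12.39 and 12.93 in knockout at P0, 13.76, 13.70 and 13.48 in wild type at P5, and 13.29, 13.74 and 13.71 in knockout at P5. The ages were apart by a small gap, between P0 wild-type sample 3 and P5 knockout sample 1. Scd1 rose 1.84-fold in wild type (adjusted p = 0.0209), 1.84-fold in knockout (adjusted p = 0.03) and 1.84-fold in the average (log2 difference 0.88, SE 0.17, adjusted p = 0.00161). Without P0 wild-type samples 1 and 2 the difference in wild type was 0.42 (adjusted p = 0.188). A second, dimmer Scd1 probe set had an average of 0.45 (SE 0.15, adjusted p = 0.0676 over all probe sets) and did not pass. The related desaturase Scd2, by contrast, read 16.85, 16.23 and 16.88 in wild type at P0, 16.58, 16.26 and 16.26 in knockout at P0, 16.63, 16.59 and 16.68 in wild type at P5, and 16.58, 16.70 and 16.58 in knockout at P5. Its ages overlapped, and the average difference was 0.12 (SE 0.11, adjusted p = 0.443, 95% interval -0.12 to 0.36).

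Fads2, the delta-6 desaturase of polyunsaturated fatty acids, read 13.48, 13.56 and 13.69 in wild type at P0, 13.51, 13.63 and 13.42 in knockout at P0, 14.09, 14.08 and 13.94 in wild type at P5, and 13.90, 13.84 and 13.94 in knockout at P5. The ages did not overlap, and Fads2 rose 1.38-fold in wild type (adjusted p = 0.0106), 1.29-fold in knockout (adjusted p = 0.0419) and 1.33-fold in the average (adjusted p = 0.00128). Without P0 wild-type samples 1 and 2 its wild-type difference was 0.35 (adjusted p = 0.0613). Elovl5, an elongase of polyunsaturated chains, rose 1.34-fold in the average (log2 difference 0.42, SE 0.10, adjusted p = 0.00748) and 1.36-fold in wild type (adjusted p = 0.0463). The wild-type value of Elovl5 depends on single libraries: it was 0.08 (adjusted p = 0.715) without P0 wild-type samples 1 and 2. Elovl6, which lengthens palmitate, and Fads1, the delta-5 desaturase, did not pass, with averages of 0.10 (SE 0.08, adjusted p = 0.389) and 0.18 (SE 0.08, adjusted p = 0.0936).

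Upstream sequences are shown for 4 of the genes described above, because the SREBPs bind sterol regulatory elements together with the CCAAT-binding factor NF-Y, and because these genes differ in how they moved with age: Ebp and Elovl1 rose, and Hmgcs1 and Fasn did not pass. RefSeq windows of 250 bases before to 50 bases after a transcript start (build GRCm38.p6) were found for 28 of the 36 genes. Each sequence holds the 250 bases before the start, 5′ to 3′ on the gene's strand, with matches to the motifs searched in capitals. The positions are chr13:119690101-119690350 (plus strand) for Hmgcs1, chrX:8193513-8193762 (minus strand) for Ebp, chr4:118427843-118428092 (plus strand, the first of the gene's 2 windows) for Elovl1 and chr11:120824548-120824797 (minus strand) for Fasn.
Hmgcs1: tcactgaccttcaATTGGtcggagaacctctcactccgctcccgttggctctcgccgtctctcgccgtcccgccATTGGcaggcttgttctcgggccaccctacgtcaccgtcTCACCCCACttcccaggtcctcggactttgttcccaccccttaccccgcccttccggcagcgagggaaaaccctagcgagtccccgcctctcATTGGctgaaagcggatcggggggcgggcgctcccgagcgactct
Ebp: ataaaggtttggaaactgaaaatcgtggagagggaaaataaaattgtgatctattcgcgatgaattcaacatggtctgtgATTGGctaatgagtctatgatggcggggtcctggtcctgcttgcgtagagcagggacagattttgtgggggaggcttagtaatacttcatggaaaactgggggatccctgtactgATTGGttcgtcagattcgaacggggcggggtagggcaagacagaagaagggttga
Elovl1: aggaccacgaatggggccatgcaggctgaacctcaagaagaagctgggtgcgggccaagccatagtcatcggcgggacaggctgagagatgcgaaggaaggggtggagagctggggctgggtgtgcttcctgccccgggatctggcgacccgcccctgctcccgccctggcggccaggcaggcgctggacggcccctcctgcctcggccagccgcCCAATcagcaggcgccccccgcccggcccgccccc
Fasn: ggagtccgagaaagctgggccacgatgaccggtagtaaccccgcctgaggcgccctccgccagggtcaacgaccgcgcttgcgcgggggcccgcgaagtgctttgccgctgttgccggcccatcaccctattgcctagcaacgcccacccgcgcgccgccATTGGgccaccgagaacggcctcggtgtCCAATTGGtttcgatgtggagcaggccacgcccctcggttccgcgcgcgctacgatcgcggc
Hmgcs1 holds a match to the sterol regulatory element TCACNCCAC and 3 CCAAT boxes (CCAAT, or ATTGG on the other strand), Ebp holds 2 CCAAT boxes, this window of Elovl1 holds 1, and Fasn holds 3, of which the last pair overlap. No E-box (CACGTG) lies in these 4 stretches.

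Over the whole windows and both strands, CCAAT was found in 23 of the 28 genes (82.1%), against 41.1% of 27025 genes with a window and 42.9% of the 10167 tested genes with one. The strict element TCACNCCAC was found in 1 (Hmgcs1, 3.57%, against 1.44% of all genes and 1.39% of the tested ones). A looser form, TCNCNCCAC, which every match of the strict element also matches, was in 2 (7.14%, against 7.39% of all genes and 9.06% of the tested ones). CACGTG was in 6 (21.4%, against 8.09% and 11.6%). CCAAT was present in 8 of the 10 genes with a window that rose with age and in 15 of the 17 that did not pass, so it was common in both. A match describes these letters in this window and is not a binding site, and these shares carry no test.

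The rise of the fatty acid modifying genes went with a rise of the markers of several cell types. In the average over genotypes, 14.5% of all genes tested rose and 15% fell. The list named for myelinating oligodendrocytes is not limited to genes of mature cells. Of its 12 markers 11 had a single-symbol probe set, and all 11 passed the filter on dim probe sets. All 11 rose from P0 to P5 (average over genotypes, median 2.22 on the log2 scale). Their summed signal was 63500 to 83900 in wild type at P0, 62100 to 82300 in knockout at P0, 282000 to 305000 in wild type at P5 and 264000 to 296000 in knockout at P5, so the ages did not overlap. The myelin genes Mobp, Mog and Mag rose by 5.14, 5.10 and 3.21. The filter is on the mean over all 12 samples (8.72), so a gene dim at P0 can pass it through P5 alone, and its rise is then partly set by the filter. Mog was such a gene, with 7.88, 7.49 and 6.76 in wild type at P0 and 6.99, 4.997 and 4.42 in knockout at P0. The lowest of these are near the floor of the scale, so the size of its rise is uncertain. Enpp6, of the same list and named here after its values were seen, was also mostly below 8.72 at P0. It read 7.30, 8.70 and 8.42 in wild type and 8.64, 8.47 and 8.77 in knockout at that age. The count of 11 includes Mog and Enpp6. Slc4a1, a red blood cell marker, was mostly below 8.72 at P0 too. Markers of oligodendrocyte precursors rose in 4 of 5 (median 0.57), of astrocytes in 8 of 10 (median 0.58), of microglia in 7 of 8 (median 0.55), of meninges and fibroblasts in 4 of 8 (median 0.51), of red blood cells in 2 of 3 (median 1.26), of endothelium in 2 of 6 (median 0.33), and of cycling cells in 7 of 7 (median 1.81). Neuron markers fell in 7 of 8 (median -0.31) but stayed bright at both ages (summed signal of 373000 to 558000). The part of these cell types in the change of the lipid genes was not tested.

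**Figure D4:**
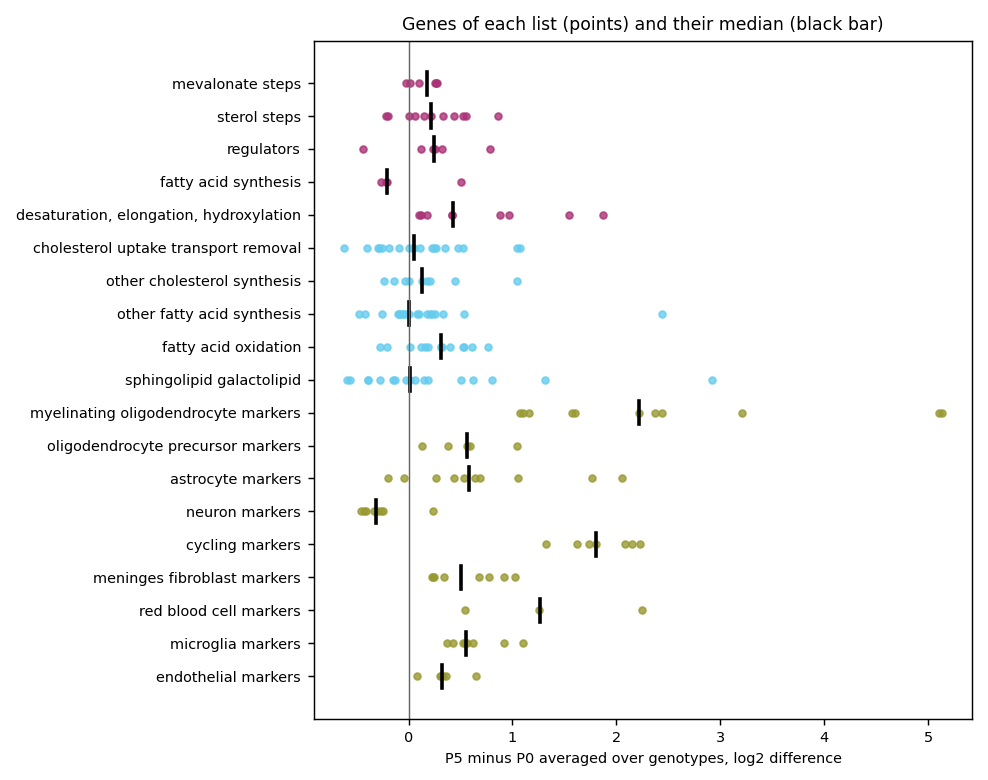
Average difference from P0 to P5 (log2, horizontal axis) of every tested gene (points) in the 5 roles of the 36 genes (purple), in the other lipid lists (light blue) and in the cell type marker lists (olive); black bars are medians. The markers of myelinating oligodendrocytes and of cycling cells lie to the right of 1, and the roles of the 36 genes lie mostly between -0.5 and 1.

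Other genes of lipid metabolism, in lists chosen with earlier results of these data known, were read the same way. Of 9 tested genes of cholesterol synthesis outside the 36, 2 rose and 0 fell (median 0.13): Lbr, a nuclear membrane protein that is also a sterol reductase, rose 2.07-fold (log2 difference 1.05, SE 0.10, adjusted p = 8.3e-06), and Ggps1, geranylgeranyl pyrophosphate synthase, rose 1.37-fold (adjusted p = 0.00477). Of 19 tested genes of cholesterol uptake, transport and removal, 4 rose and 3 fell (median 0.049), led by the apolipoproteins Clu (2.06-fold, adjusted p = 7.9e-06) and Apoe (1.43-fold, adjusted p = 0.00229) and the lysosomal carrier Npc2 (1.39-fold, adjusted p = 0.00231). Of all genes tested 14.5% rose and 15% fell, with a median of 0.001. The counts of these lists carry no test against those shares.

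Of 19 tested genes in a list of other fatty acid synthesis genes, 3 rose and 2 fell (median 0.005). For this list and those that follow, 14.5% of all genes rose and 15% fell. Thrsp, a regulator of lipid synthesis, rose 5.43-fold (log2 difference 2.44, SE 0.29, adjusted p = 4.6e-05), and Hacd2, a dehydratase of the elongation cycle, rose 1.45-fold (adjusted p = 0.0233). The elongase Elovl2 fell by 0.48 (SE 0.08, adjusted p = 0.00106) and Elovl4 fell by 0.25 (SE 0.08, adjusted p = 0.0304), opposite in sign to Elovl1, Elovl5 and Elovl7. Of 17 tested genes of sphingolipid and galactolipid synthesis 3 rose and 5 fell (median 0.015). Ugt8a, which makes galactosylceramide, rose 7.58-fold (log2 difference 2.92, SE 0.10, adjusted p = 8.0e-10), Gal3st1, which sulphates it, rose 1.75-fold (adjusted p = 0.000738), and the ceramide synthases Cers2 and Cers5 had opposite changes, a rise of 0.62 (adjusted p = 0.000389) and a fall of -0.39 (adjusted p = 0.0011). Of 14 tested genes of fatty acid oxidation 6 rose and 1 fell (median 0.31), among them Hadh (0.77), Hadhb (0.53) and Hadha (0.53).

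The second question was whether loss of NR3B went with a difference in these genes. At P0, 0 of the 36 genes changed (limma adjusted p, smallest 0.285), where 0.0238% of all genes tested did. An unadjusted p under 0.05 was reached by 7 of the 36 and by 16.1% of all genes. The median difference of the 36, knockout minus wild type, was -0.065, against 0.069 for all genes. The genotypes were apart without overlap in 3 of the 36 (Insig2 and Elovl1 higher and Cyp51 lower in knockout), where 10.2% of all genes were apart. The gap was 0.06 for Insig2, 0.001 for Cyp51 and 0.00013 for Elovl1. The differences farthest above 0 were those of Tm7sf2 (0.67, 95% interval 0.22 to 1.11), Pmvk (0.60, 0.02 to 1.19), Ebp (0.56, 0.04 to 1.08), Elovl1 (0.55, 0.17 to 0.92) and Insig1 (0.45, 0.06 to 0.85). Those farthest below 0 were Elovl7 (-0.34, -0.79 to 0.10), Lss (-0.33, -0.68 to 0.01), Fasn (-0.32, -0.65 to 0.01) and Sc5d (-0.31, -0.91 to 0.30). This order holds for the brightest probe set of each gene. At P0 a second bright Elovl7 probe set was at 0.39 and a second Insig2 probe set at -0.18, opposite in sign to the ones used (-0.34 and 0.31). The remaining Elovl7 probe sets (-0.48, -0.26, -0.06 and -0.10) and the third of Insig2 (0.06) had the sign of the ones used. Dimmer probe sets of Scd2 (-0.62 and -0.97) and Acaca (-0.93) lay below every other value given here.

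The P0 result depends on single libraries. Pmvk read 11.31, 12.70 and 11.89 in wild type at P0 and 12.17, 12.82 and 12.72 in knockout at P0, so wild-type sample 2 lay among the knockout samples and sample 1 far below them. The same order of the wild-type samples is seen in Tm7sf2, Ebp and Elovl1, while in Hmgcs1, Fasn and Scd2 the normalised level of wild-type sample 2 was the lowest of its group. In deposited signal this held for Fasn only. There wild-type samples 1 to 3 read 89050, 99240 and 94000 for Hmgcs1, and 94380, 96060 and 95250 for Scd2, so sample 2 was the highest. Both genes are near the top of the scale (percentiles 99.7 and 99.8), and the order of these samples depends on the normalisation. The differences given next are of normalised levels. Without P0 wild-type sample 2, 12 of the 36 genes differed at P0, where 21.4% of all genes did. Then 6 were higher in knockout (Pmvk 0.97, Tm7sf2 0.95, Ebp 0.86, Elovl1 0.73, Insig1 0.65 and Nsdhl 0.55) and 6 were lower (Fasn -0.52, Scd2 -0.50, Hmgcs1 -0.47, Lss -0.47, Acaca -0.47 and Acly -0.36). Without P0 wild-type samples 1 and 2, 3 differed (Tm7sf2 0.76, Hmgcs1 -0.51 and Cyp51 -0.51), where 4.53% of all genes did. The P0 genotypes also differed in their marker levels: the summed signal of the meninges and fibroblast markers was 65500 to 96200 in wild type and 127000 to 148000 in knockout, and that of the red blood cell markers 936 to 1960 and 2620 to 4740. The microglia markers overlapped in summed signal (17100 to 26300 and 24400 to 31200) and lay above 0 in 7 of 8 (median 0.636), against 8 of 8 for the meninges and fibroblast markers (median 0.565). In these 3 lists 0 markers passed the threshold. The part of these libraries and markers in the P0 differences was not tested.

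At P5, 0 of the 36 genes changed between the genotypes (limma adjusted p of 0.9998 for each), where 0.00794% of all genes did, and 0 had an unadjusted p under 0.05, where 1.84% of all genes did. The replicates were closer together at this age, and 28 of the 36 differences lay below 0, with a median of -0.085 against 0.005 for all genes. All knockout samples lay below all wild-type samples in 7 of the 36, against 5.26% of all genes, and above in 0. In either direction 12.9% of all genes were apart. The 7 were the decarboxylase Mvd (-0.23, by a gap of 0.003), Cyp51 (-0.22), Nsdhl (-0.16), Hsd17b7 (-0.30), Dhcr7 (-0.28), Elovl6 (-0.19) and Fa2h (-0.31). The mevalonate enzymes were below 0 in 6 of 6, the sterol enzymes in 7 of 11, the regulators in 4 of 6, the enzymes of fatty acid synthesis in 3 of 4 and those of desaturation, elongation and hydroxylation in 8 of 9. None of these counts is a test, the genes share the 6 samples, and P5 knockout sample 1 was the lowest of its group in 22 of the 36 genes. A lower level of cholesterol synthesis genes in knockout than in wild type at P5 had been seen earlier in these data, so these counts are not independent of it.

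The intervals give the size of a difference that this fit allows at P5. They and the P5 p-values use a spread per gene taken over all groups, so they also carry the P0 scatter. The median SD within a group was 0.312 in wild type at P0, against 0.094 in wild type and 0.09 in knockout at P5. With only the P5 groups in the fit, 0 genes of the set passed. For Fa2h the 95% interval of knockout minus wild type was -0.78 to 0.15, for Hsd17b7 -0.60 to 0.01, for Dhcr7 -0.61 to 0.05 and for Cyp51 -0.49 to 0.05. Srebf1 had the difference farthest above 0 (0.22, interval -0.05 to 0.50). Markers of myelinating oligodendrocytes lay below 0 in 10 of 11 at P5 (median -0.068), with summed signals that overlapped between the genotypes. Those of microglia lay above 0 in 8 of 8 (median 0.27), with sums of 31000 to 32700 in wild type and 37900 to 38800 in knockout. Astrocyte markers lay above 0 in 9 of 10 (median 0.088), with sums of 264000 to 270000 in wild type and 276000 to 285000 in knockout. The microglia and astrocyte sums were thus apart, and those of the other marker lists overlapped. In these lists 0 markers passed the threshold at P5. The part of these markers in the lipid genes was not tested.

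**Figure D5:**
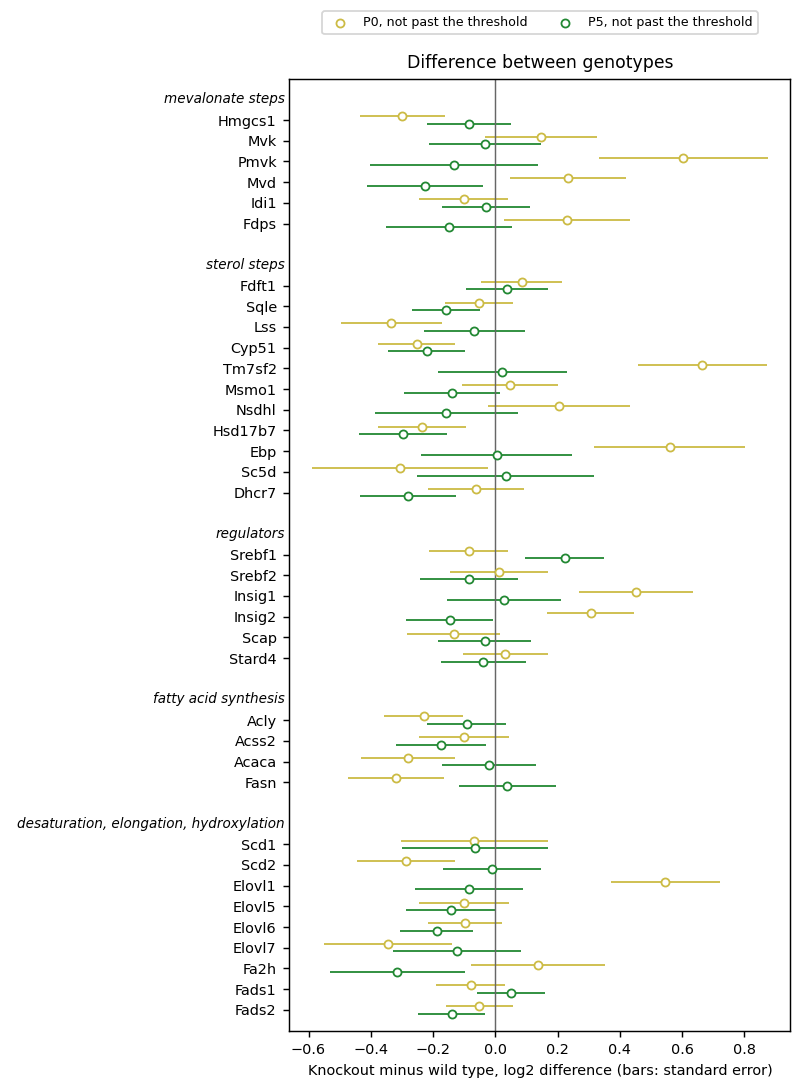
Difference between the genotypes (knockout minus wild type, log2, horizontal axis) of each of the 36 genes at P0 (yellow) and at P5 (green); bars are standard errors of the limma fit, and all points are open because 0 genes passed the threshold. The P0 points spread from -0.34 to 0.67, and 28 of the 36 P5 points lie left of 0.

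Averaged over both ages, 0 of the 36 genes differed between the genotypes (smallest limma adjusted p 0.574), where 0.0238% of all genes did. An unadjusted p under 0.05 was reached by 8.65% of all genes and by 3 of the 36, a share close to that of all genes: Hsd17b7 (-0.27, SE 0.10), Cyp51 (-0.24, SE 0.09) and Tm7sf2 (0.34, SE 0.15). Cyp51 read 13.71, 13.66 and 14.06 in wild type at P0 and 13.66, 13.52 and 13.49 in knockout at P0, then 13.72, 13.77 and 13.91 in wild type at P5 and 13.59, 13.64 and 13.51 in knockout at P5. It was the only gene of the 36 in which all knockout samples lay below all wild-type samples at both ages, by a gap of 0.001 at P0. Without P0 wild-type sample 2, 2 of the 36 passed in the average over ages, Hmgcs1 and Tm7sf2, where 5.96% of all genes did.

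The third question was whether the change from P0 to P5 differed between the genotypes. The interaction of genotype and age passed for 0 of the 36 genes (smallest limma adjusted p 0.742), as for 0% of all genes, and 3 had an unadjusted p under 0.05, where 4.98% of all genes did. These were Tm7sf2 (-0.64, 95% interval -1.27 to -0.01), Elovl1 (-0.63, -1.16 to -0.10) and Insig2 (-0.45, -0.88 to -0.03), each with a smaller rise in knockout than in wild type or, for Insig2, differences of opposite sign (0.34 in wild type and -0.11 in knockout). Other probe sets did not give the same interaction: those of Insig2 gave 0.01 and 0.07, with differences above 0 in both genotypes, and the other bright ones of Elovl1 gave -0.43 and -0.13. For Stard4 the interaction was -0.07 (interval -0.48 to 0.34), for Elovl7 0.22 (-0.40 to 0.84) and for Fa2h -0.45 (-1.11 to 0.20). The median over the 36 genes was -0.072, against -0.058 for all genes. Without P0 wild-type sample 2 the interaction passed for 1 of the 36, Tm7sf2, where 1.67% of all genes passed.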

How the data were processed

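The authors deposited 1 linear intensity for each of 45101 probe sets of a mouse array in each of 12 samples. The software and scaling that made them are not given in the sources used here. After removal of 64 control probe sets, 34945 had 1 gene symbol in the platform table, 932 had several and 9160 had none. Signals were taken as log2(signal + 16), a scale on which changes of dim genes look smaller, and quantile-normalised. Probe sets with a mean under the 40th percentile were left out, and the brightest single-symbol probe set stood for a gene (12600 of 18193 genes). limma 3.58.1 (R 4.3.3) fitted a mean for each of the 4 groups over the 12 samples, with a trended prior and 8 residual degrees of freedom. It gave 7 comparisons, each with Benjamini-Hochberg adjustment over the 12600 genes and a threshold of 0.05. Folds are log2 differences taken back to the linear scale. Every adjusted p is from limma.

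The 37 genes, the other lists and the settings were chosen with earlier results of these data known. All 37 genes may be named. From each other list, up to 3 genes with the smallest p for age and up to 2 with the smallest p for genotype, both averaged, may be named. Enpp6 was named after its values were seen. The number of arrays limits the precision. The alternatives were other scaling, pseudocounts, filters, probe set rules, priors, array weights, samples in the fit, a block for the replicate number, and leaving out samples.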

Additional observations from a re-analysis of the deposited data

How the results depend on the processing

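Over all alternatives, 0 of the genes that had changed reversed their direction. Of the 13 genes changed with age in wild type, 6 passed under every alternative run (Ebp, Dhcr7, Stard4, Elovl1, Elovl7 and Fa2h), as did 3 of 6 in knockout (Stard4, Elovl7 and Fa2h) and 12 of 14 in the average over genotypes (not Tm7sf2 and Srebf1). Without 1 sample at a time, the number of changed genes ranged from 7 to 22 for age in wild type (9.54% to 38.3% of all genes; 22 without P0 wild-type sample 2, and 7, 8 and 8 when P5 wild-type samples 1, 2 and 3 were left out in turn), from 3 to 13 in knockout (5.18% to 15.6%; 13 without P0 wild-type sample 2, 3 without P5 knockout sample 2 or 3) and from 12 to 22 in the average (22.4% to 42.6%). For genotype it ranged from 0 to 12 at P0 (up to 21.4% of all genes), was 0 throughout at P5, ranged from 0 to 2 in the average over ages (up to 5.96%), and from 0 to 1 in the interaction (up to 1.67%). With array weights the counts were 22, 12 and 22 for age (wild type, knockout and their average; 47.7%, 16.7% and 46% of all genes), and 11, 0, 8 and 7 for genotype at P0, at P5, in the average and in the interaction (24.5%, 0.0476%, 16.2% and 12.1%). These weights rest P0 wild type mostly on sample 3. Without P0 wild-type samples 1 and 2 the counts were 13 for age in knockout (17.2%) and 3 for genotype at P0 (4.53%). With only the groups compared in the fit, 6 genes passed for age in wild type and 9 in knockout (10.4% and 10.9% of all genes). Replicate numbers are shared by the labels of the groups, and 5 of 18 correlations between same-numbered samples were over 0.1 (range -0.128 to 0.414). The highest were between wild type and knockout at P0, 0.414 for number 1 and 0.378 for number 2, against 0.028 for number 3. The main fit did not take the numbers to pair samples, so such shared deviations at P0 are not modelled in it. With a replicate block the counts were 15 (wild type), 5 (knockout) and 14 (average) for age (22.9%, 10.8% and 31% of all genes), and 0 for each genotype comparison. The cause of these changes was not tested. Probe sets near background limit the precision of dim genes, and all 36 genes lay above the filter.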

Other observations

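Other lipid lists were also set against genotype, and 0 of their genes passed the threshold (limma) at P0, at P5 or in the average over ages. In that average, 12 of 14 tested genes of fatty acid oxidation lay above 0 in knockout (median 0.153, against 0.039 for all genes tested), and 1 had an unadjusted p under 0.05, where 8.65% of all genes did. Acaa2, the mitochondrial thiolase, was 0.40 higher in knockout at P0 (SE 0.16, adjusted p = 0.29) and 0.05 higher at P5 (SE 0.16). Slc25a20, which carries acylcarnitines into mitochondria, was 0.42 higher at P0 (SE 0.15, adjusted p = 0.285) and 0.20 higher at P5. The genes of cholesterol uptake, transport and removal had a median of 0.019 over 19 genes, with 0 at an unadjusted p under 0.05, and Nr1h3, a sterol-sensing nuclear receptor, was at -0.61 at P0 (SE 0.27, adjusted p = 0.303) and 0.00 at P5.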
